A study of Homo sapiens with 24 samples.

Results

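The genes described here are 10 genes of the endoplasmic reticulum unfolded protein response: HSPA5, HSP90B1, CALR, PDIA4, SDF2L1, MANF, ERN1, XBP1, DNAJB9 and HERPUD1. They were taken by name, as the rows of the gene count table whose Ensembl identifier maps to these symbols. No measured value entered that rule, but the names were chosen with earlier results of these data known. Each symbol matched 1 row of the 60668 in the table. All 10 were among the 22158 genes that passed the filter on low counts in every comparison. RNA came from MCF-10A, an immortalised human mammary epithelial line labelled wild-type and called parental below, and from MCF-10A MYC-ER. The second line carries MYC, a transcription factor, fused to the part of the oestrogen receptor that binds hormone, and the fusion is inactive until 4-hydroxytamoxifen (4-OHT) binds it. Both lines grew as 3D cultures on Matrigel and received 1 µM 4-OHT for 0, 8, 24 or 48 h, with treatment beginning from day 3 and every culture collected on day 5, which gives 8 groups of 3 libraries (24 in all). The human or mouse origin of the fusion, its promoter, whether the line is 1 clone and what the 0 h cultures received in place of 4-OHT are not given in the sources used here. The labels speak of wells in triplicate and do not say that replicates were separate experiments, so the p-values measure the spread between these samples, which may be technical.

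The unfolded protein response adjusts the folding capacity of the endoplasmic reticulum (ER) to the load of new secretory and membrane proteins. Its 3 sensors in the ER membrane are IRE1 (gene ERN1), PERK (EIF2AK3) and ATF6, which the luminal chaperone BiP (HSPA5) restrains while folding is in balance. IRE1 splices XBP1 mRNA to give an active transcription factor, ATF6 is cut at the Golgi to release one, and PERK slows translation and favours ATF4. Their targets include chaperones, oxidoreductases and the machinery that removes misfolded proteins. Counts per gene show neither XBP1 splicing nor any protein.

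By GENCODE v29 (GRCh38), the folding genes lie as follows: HSPA5 (ENSG00000044574.8) at chr9:125234853-125241330, minus strand, HSP90B1 (ENSG00000166598.15) at chr12:103930107-103953645, plus strand, CALR (ENSG00000179218.13) at chr19:12938578-12944489, plus strand, PDIA4 (ENSG00000155660.11) at chr7:149003062-149028641, minus strand, SDF2L1 (ENSG00000128228.5) at chr22:21642261-21644298, plus strand, MANF (ENSG00000145050.18) at chr3:51385047-51389397, plus strand. The sensing, signalling and degradation genes lie as follows: ERN1 (ENSG00000178607.16) at chr17:64039142-64130819, minus strand, XBP1 (ENSG00000100219.16) at chr22:28794555-28800597, minus strand, DNAJB9 (ENSG00000128590.5) at chr7:108569568-108574850, plus strand, HERPUD1 (ENSG00000051108.15) at chr16:56932048-56944863, plus strand.

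Promoters of 6 of the 10 genes hold a known element of this response, and the matching stretches are shown because these genes did not all move together. The RefSeq windows searched run from 250 bases before to 50 bases after each transcription start (GRCh38.p14), and all 10 genes matched, with 12 windows. The ER stress response element, ERSE, was searched on both strands as CCAAT, then 9 bases of any kind, then CCACG. The shorter ERSE-II was searched as ATTGG and CCACG with 1 base of any kind between them. ERSE contains the CCAAT box, as does ERSE-II on its other strand. In the lines below each sequence reads 5′ to 3′ along the gene's own strand, with 10 flanking bases on each side, and the capitals mark the fixed letters of the motif.
HSPA5, ERSE, chr9:125241381-125241419, minus strand: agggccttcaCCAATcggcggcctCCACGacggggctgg
HSP90B1, ERSE, chr12:103930206-103930244, plus strand: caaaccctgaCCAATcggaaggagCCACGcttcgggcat
HSP90B1, ERSE read on the opposite strand, chr12:103930311-103930349, plus strand: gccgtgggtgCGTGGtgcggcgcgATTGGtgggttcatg
CALR, ERSE read on the opposite strand, chr19:12938374-12938412, plus strand: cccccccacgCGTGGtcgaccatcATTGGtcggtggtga
XBP1, ERSE, chr22:28800593-28800631, minus strand: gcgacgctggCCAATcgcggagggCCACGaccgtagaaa
SDF2L1, ERSE-II read on the opposite strand, chr22:21642104-21642134, plus strand: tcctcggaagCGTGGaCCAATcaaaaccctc
HERPUD1, ERSE-II, chr16:56932015-56932045, plus strand: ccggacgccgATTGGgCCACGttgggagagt
The 9 bases between CCAAT and CCACG differ from site to site, while the outer letters are those searched. Counted from the transcription start, the HSPA5 element began at base -66 and the XBP1 element at base -52. The other elements began at bases -194 and -89 (HSP90B1), -225 (CALR), -188 (SDF2L1) and -117 (HERPUD1). All lie upstream of the GENCODE v29 gene as well, except those of HSP90B1, which fall inside its span because RefSeq places the start further downstream.

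ERSE was present in 27 of 35116 promoter windows, or 0.0769%, and those windows include HSPA5, HSP90B1, CALR and XBP1. ERSE-II was present in 19 windows, or 0.0541%, among them SDF2L1 and HERPUD1. The plain CCAAT box was found in 34.6% of all windows. By gene, it was in a window of 39.7% of all genes and of each of these 10, though not in the second XBP1 window. The core of the unfolded protein response element, TGACGTGG, occurs in 0.729% of windows and in none of these. The E-box CACGTG, a sequence that MYC binds with its partner MAX, was found in 7.26% of windows, and in those of HSP90B1, DNAJB9 and HERPUD1. PDIA4, MANF, ERN1 and DNAJB9 had neither ERSE nor ERSE-II in these letters and this window. A match describes the sequence alone, since no binding was measured.

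**Figure D1:**
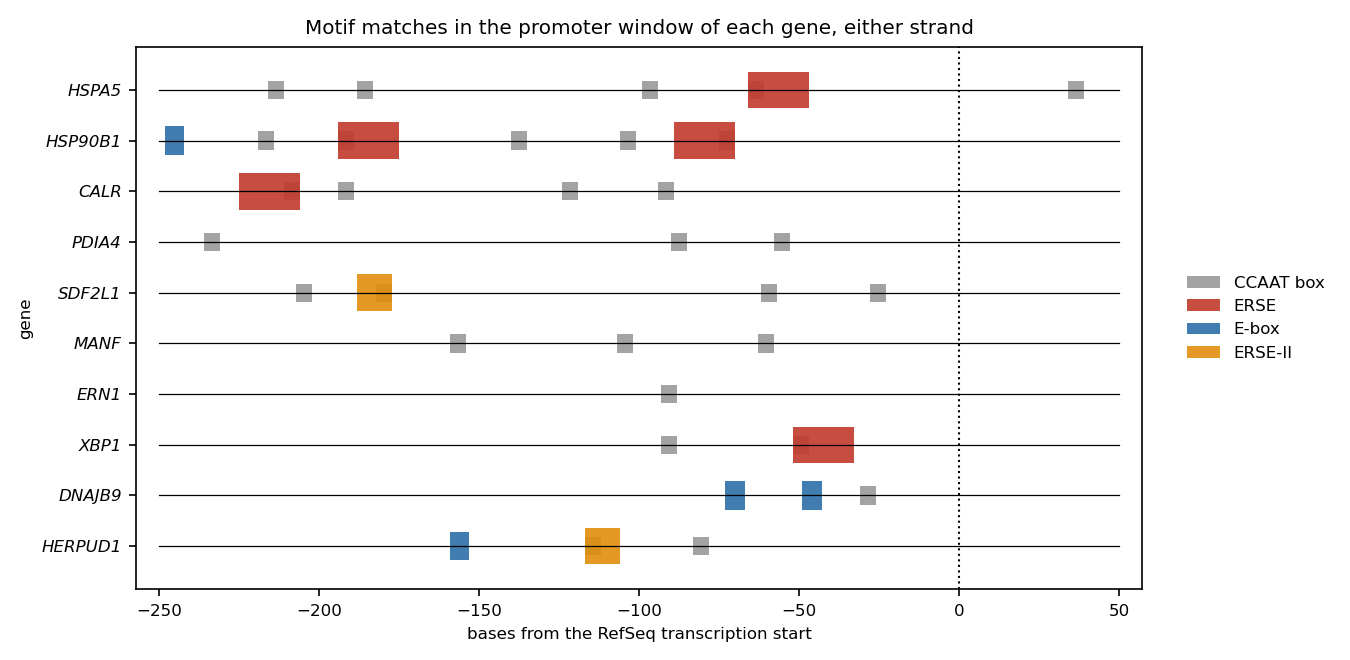
Motif matches in the RefSeq promoter window of each gene, plotted as bases from the transcription start (dotted line), 1 line per gene, with matches on either strand drawn to scale. For XBP1 and PDIA4, which have 2 windows each, only the first is drawn. ERSE boxes lie in the windows of HSPA5, HSP90B1, CALR and XBP1, ERSE-II boxes in those of SDF2L1 and HERPUD1, and CCAAT boxes in all 10.

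The libraries held 136860029 to 182438505 counts, and the members had between 878 counts (SDF2L1, lowest library) and 190288 counts (HSP90B1, highest library). The parental 0 h libraries stood apart from one another, with a chi-square per degree of freedom of 159 to 261 between replicates, against 8.45 to 63.3 in the other 7 groups. They are the baseline of every parental change and interaction. At 8 h in the parental line 6870 genes passed, 4720 without parental 0 h replicate 1, 9166 without replicate 2 and 4929 without replicate 3. Levels below are counts scaled to a common library total (CPM), after adjustment of the totals by TMM. All 10 epithelial markers were present in every library, from 6763 CPM upward for KRT5 and from 1.73 CPM upward for EPCAM. Their summed level ran in MYC-ER from 14815 to 15347 CPM before 4-OHT, from 15323 to 16988 after 8 h and from 10650 to 11376 over the later times. In the parental line it ran from 23675 to 29324 CPM before 4-OHT and from 18640 to 24633 after it. KRT5 alone made up 6763 to 14121 CPM, so the sum does not describe most markers. Against 0 h in MYC-ER, 6 of the 10 were higher and 3 lower at 8 h (32.2% and 35.4% of all genes tested). At 24 h 6 were higher and 2 lower (30.4% and 31.2%), and at 48 h 6 higher and 1 lower (23.4% and 20.7%). Of 12 blood, endothelial and fibroblast markers, CD3E and CDH5 had no counts in any library, and PTPRC, LYZ and COL1A2 reached at most 10. The summed level of the 12, mostly COL1A1, DCN and CD68, ran in MYC-ER from 386 to 392 CPM before 4-OHT, from 123 to 134 after 8 h, from 88.7 to 99.5 after 24 h and from 128 to 136 after 48 h. In the parental line it was 133 to 147 CPM at 0 h and 94.1 to 118 later. Both sums moved in the MYC-ER line at times at which the members changed, and their part in the results below was not tested. In cultures measured as a whole, fewer cells of a type and less RNA per cell cannot be told apart. MYC itself, whose row may or may not include the fusion, averaged 387, 795, 321 and 248 CPM over the 4 times in the MYC-ER line and 532, 463, 506 and 525 CPM in the parental line, so this gene does not check which line carries the fusion.

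Per kilobase of exon, the luminal chaperones were the most abundant members. At 0 h in the MYC-ER line HSPA5 stood at 150.5 ± 4.07 CPM per kb (SD, n = 3) and CALR, the lectin chaperone calreticulin, at 141 ± 3.76 CPM per kb. HSP90B1, the ER member of the HSP90 family (GRP94), followed at 111 ± 4.83 CPM per kb. The disulfide isomerase PDIA4 stood at 39.7 CPM per kb, and XBP1 at 27.2 CPM per kb. MANF, HERPUD1, DNAJB9, SDF2L1 and ERN1 then ran from 16.5 down to 3.61 CPM per kb. At 8 h the order changed at the top, with HSP90B1 at 268 CPM per kb above CALR and HSPA5, both at 243 CPM per kb.

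After 8 h of 4-OHT in the MYC-ER line all 10 genes passed the test, 7 higher and 3 lower, in data where 67.6% of all genes tested passed (32.2% higher, 35.4% lower). The 6 luminal folding genes and XBP1 were higher, by up to 5.06-fold for SDF2L1, while ERN1, DNAJB9 and HERPUD1 were lower. The split by role used below was made with these values known. The members' median log2 change was 0.65, against -0.10 over all genes tested. For each of the 10 genes the 8 h and 0 h replicates did not overlap, as was the case for 73.5% of all genes tested.

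SDF2L1, a luminal partner of the ER J-domain proteins, showed the largest change of the 10. Its 3 libraries read 6.8, 5.9 and 6.7 CPM at 0 h and 33.3, 31.2 and 34.1 CPM at 8 h. Every 8 h library was thus far above every 0 h library, and the log2 change was 2.34 ± 0.12 (SE, edgeR adjusted p = 2.4e-13). HSP90B1 read 499.7, 545 and 524 CPM at 0 h and 1278, 1232 and 1269 CPM at 8 h. This chaperone of secreted and cell surface proteins rose 2.41-fold, a log2 change of 1.27 ± 0.06 (SE, edgeR adjusted p = 1.0e-14). PDIA4 gave 127, 132 and 132 CPM at 0 h against 321, 304 and 315 CPM at 8 h. Its rise was of the same size, 1.27 ± 0.06 in log2 (SE, edgeR adjusted p = 1.2e-14).

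HSPA5, the BiP chaperone that binds unfolded chains and the 3 sensors, read 569.9, 595 and 599 CPM at 0 h and 977, 918 and 951 CPM at 8 h. The 3 libraries at 8 h were all above those at 0 h, and HSPA5 rose 1.61-fold (log2 change 0.69 ± 0.06 SE, edgeR adjusted p = 6.6e-10). CALR, which holds glycoproteins during folding and binds calcium, went from 373, 382 and 394 CPM to 693, 623 and 663 CPM. Its log2 change was 0.78 ± 0.09 (SE, edgeR adjusted p = 4.7e-08). MANF, a small secreted ER protein, went from 38.7, 38.4 and 40.5 CPM to 64.7, 55.6 and 58.6 CPM. The MANF rise of 0.60 ± 0.08 in log2 (SE, edgeR adjusted p = 7.7e-07) was the smallest among the folding genes.

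**Figure D2:**
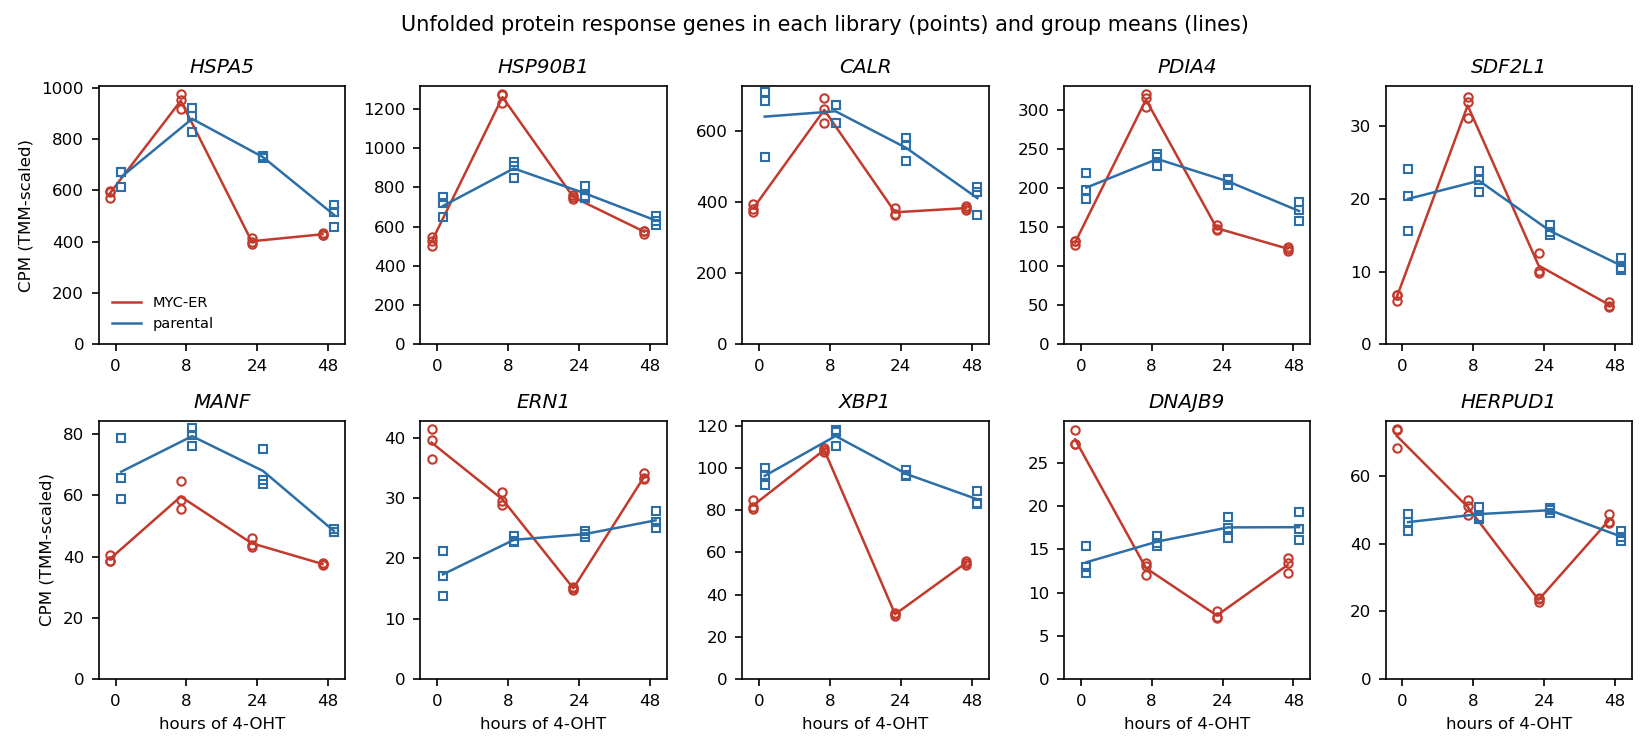
CPM of each gene in every library (circles, MYC-ER; squares, parental) at 0, 8, 24 and 48 h of 4-OHT, spaced equally, with lines through the group means and each vertical axis starting at 0. In the MYC-ER line the folding genes of the upper row and MANF peak at 8 h, ERN1, DNAJB9 and HERPUD1 are lower at 8 h and lowest at 24 h, and XBP1 is highest at 8 h and lowest at 24 h.

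The genes of sensing, signalling and degradation did not move together at 8 h. XBP1 was at 81.4, 80.8 and 84.9 CPM at 0 h and at 109.6, 107.7 and 108.5 CPM at 8 h. It rose by 0.40 ± 0.04 in log2 (SE, edgeR adjusted p = 2.2e-08), with no overlap. ERN1, whose product splices XBP1 mRNA, was at 41.4, 39.7 and 36.5 CPM at 0 h and at 29.4, 31.1 and 28.8 CPM at 8 h. All 3 libraries at 8 h were below those at 0 h, and ERN1 fell by 0.40 on the log2 scale (SE 0.09, edgeR adjusted p = 7.5e-04). DNAJB9 (ERdj4), a J-domain cochaperone that keeps BiP on IRE1 and assists degradation, was at 27.2, 27.2 and 28.8 CPM at 0 h. At 8 h it read 13.4, 13.0 and 12.0 CPM, a 2.16-fold lower level (log2 change -1.11 ± 0.09 SE, edgeR adjusted p = 1.4e-10). HERPUD1, an ER membrane protein of the degradation complex, went from 68.3, 73.5 and 73.8 CPM to 51.1, 48.5 and 53.0 CPM. It fell by 0.50 on the log2 scale (SE 0.05, edgeR adjusted p = 9.8e-09).

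At 24 h, of the 10 genes 8 passed the test against 0 h, 3 higher and 5 lower, where 61.6% of all genes tested passed (30.4% higher, 31.2% lower). HSP90B1, SDF2L1 and PDIA4 were still above 0 h, HSPA5, ERN1, XBP1, DNAJB9 and HERPUD1 were below it, and CALR and MANF did not pass. The replicates of 9 genes did not overlap between 24 h and 0 h, as for 70.7% of all genes tested. The members' median log2 change was -0.30, against -0.02 over all genes tested, and describes neither set.

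The 4 genes of sensing, signalling and degradation were each at their lowest level of the 4 times in the MYC-ER line. XBP1 read 31.4, 30.7 and 30.1 CPM at 24 h, and these lay below all its other 21 libraries in both lines. Against 0 h XBP1 was 2.68-fold lower (log2 change -1.42 ± 0.04 SE, edgeR adjusted p = 1.7e-17). DNAJB9 read 7.8, 7.1 and 7.1 CPM, 3.77-fold below 0 h (log2 change -1.91 ± 0.09 SE, edgeR adjusted p = 2.4e-14). HERPUD1 read 23.9, 22.7 and 23.7 CPM, 3.07-fold below 0 h (log2 change -1.62 ± 0.05 SE, edgeR adjusted p = 3.9e-17). The lowest group of both genes over the 2 lines was this one, without overlap with the next. ERN1 read 15.3, 14.7 and 15.1 CPM, 2.61-fold below 0 h (log2 change -1.38 ± 0.09 SE, edgeR adjusted p = 2.7e-11), and overlapped only the parental 0 h libraries.

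The folding genes at 24 h were between their 8 h and 0 h levels or below them. HSP90B1 read 749, 740.5 and 761 CPM and was 0.52 ± 0.06 above 0 h in log2 (SE, edgeR adjusted p = 3.2e-08). SDF2L1 read 12.6, 9.8 and 10.1 CPM, 0.74 ± 0.12 above 0 h in log2 (SE, edgeR adjusted p = 1.4e-05). PDIA4 read 152, 147 and 147 CPM, and its rise of 0.19 ± 0.06 in log2 was small but without overlap (SE, edgeR adjusted p = 0.0051). HSPA5 read 415, 392 and 397 CPM and fell by 0.55 on the log2 scale (SE 0.06, edgeR adjusted p = 3.0e-08). BiP mRNA was thus below its 0 h level while that of GRP94, its partner chaperone, was above it. HSPA5 was also at its lowest at 24 h in MYC-ER, without overlap with any other group of either line. CALR differed from 0 h by -0.04 ± 0.09 in log2 (SE, edgeR adjusted p = 0.68), and library size scaling or removal of the GC trend turned its sign. MANF differed by 0.18 ± 0.08 (SE, edgeR adjusted p = 0.059), and it passed the test under 6 of the 9 other settings.

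From 8 h to 24 h all 10 genes fell, where 55.5% of all genes tested passed (28.4% higher, 27.1% lower). The falls ran from 0.43 on the log2 scale for MANF to 1.82 for XBP1, and HSPA5 fell by 1.24. No gene's libraries overlapped between these times, which held for 65.0% of all genes tested.

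At 48 h against 0 h 4 genes passed, all lower, where 44.1% of all genes tested passed (23.4% higher, 20.7% lower). They were HSPA5 (425, 426 and 435 CPM, log2 change -0.46 ± 0.06 SE), XBP1 (56.0, 54.2 and 55.0 CPM, -0.58 ± 0.04 SE), DNAJB9 (13.4, 13.9 and 12.2 CPM, -1.07 ± 0.09 SE) and HERPUD1 (48.8, 46.3 and 46.2 CPM, -0.61 ± 0.05 SE). In each of them the 48 h libraries stayed below those at 0 h. The groups of 9 members, all except CALR, did not overlap, as for 62.3% of all genes tested. CALR was back at 389.6, 383 and 378 CPM, a log2 difference of 0.00 ± 0.09 (SE) from 0 h. ERN1, at 33.1, 34.2 and 33.4 CPM, differed from 0 h by -0.22 ± 0.09 in log2 (SE, edgeR adjusted p = 0.057). A fit of the 2 groups alone, in place of all 8, called 8 genes at this time, with HSP90B1 higher and 7 genes lower. HSP90B1, at 0.13 ± 0.05 (SE, edgeR adjusted p = 0.054), was called higher under 6 of the 9 other settings, with 0.30 under library size scaling (edgeR adjusted p = 2.7e-05). Over all groups, it passed without MYC-ER 0 h replicate 2 (0.16) and ERN1 without MYC-ER 0 h replicate 3 (-0.27).

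Between 24 h and 48 h the members moved in opposite directions, 4 higher and 4 lower, where 53.7% of all genes tested passed (28.2% higher, 25.5% lower). Between these times 9 members did not overlap, as for 68.0% of all genes tested. The signalling and degradation genes rose: ERN1 by 1.16 ± 0.09 in log2, HERPUD1 by 1.01 ± 0.05, DNAJB9 by 0.84 ± 0.09 and XBP1 by 0.84 ± 0.04 (SE). Of the folding genes SDF2L1 fell by 1.01 on the log2 scale, HSP90B1 by 0.39, PDIA4 by 0.28 and MANF by 0.24. HSPA5 (0.10 ± 0.06 SE) and CALR (0.05 ± 0.09 SE) did not pass, and MANF lost its call without MYC-ER 24 h replicate 1 (-0.21).

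The parental line received 4-OHT without the fusion. At 8 h 7 of 10 were higher and none lower, where 31.0% of all genes tested passed (15.0% higher). HSPA5 read 669.7, 613 and 672 CPM at 0 h and 921, 827 and 889 CPM at 8 h. It rose by 0.43 ± 0.06 in log2 (SE, edgeR adjusted p = 1.8e-05), the largest of the 7 changes. ERN1 followed with 0.41 ± 0.09, HSP90B1 with 0.35 ± 0.05, XBP1 with 0.26 ± 0.04, PDIA4 with 0.24 ± 0.06, DNAJB9 with 0.23 ± 0.08 and MANF with 0.23 ± 0.08 (SE). The groups of 6 members did not overlap, as for 33.9% of all genes tested. SDF2L1, HERPUD1 and CALR did not pass, and the parental 0 h libraries of CALR were spread from 528.5 to 709.8 CPM. The DNAJB9 call was lost without any 1 of 5 of the 6 libraries compared and the MANF call without any 1 of 4, while SDF2L1 passed without parental 0 h replicate 3 (0.34).

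At 24 h in the parental line 5 genes passed, where 42.9% of all genes tested passed (21.2% higher, 21.7% lower). ERN1 (log2 change 0.47 ± 0.09 SE), DNAJB9 (0.38 ± 0.08 SE) and HSPA5 (0.16 ± 0.06 SE) were higher, and SDF2L1 (-0.36 ± 0.12 SE) and CALR (-0.21 ± 0.09 SE) lower. The groups of 4 members did not overlap at 24 h, as for 43.1% of all genes tested. At 48 h all 10 passed, where 40.5% of all genes tested passed (20.4% higher, 20.1% lower). ERN1 rose by 0.60 ± 0.09 in log2 and DNAJB9 by 0.38 ± 0.08 (SE), and the other 8 fell, SDF2L1 by 0.88, CALR by 0.64, MANF by 0.49 and HSPA5 by 0.37 on the log2 scale. SDF2L1 libraries read 20.3, 15.6 and 24.1 CPM at 0 h and 10.2, 10.5 and 11.8 CPM at 48 h, without overlap. Between 48 h and 0 h 9 members did not overlap, as for 39.0% of all genes tested. ERN1 libraries read 17.0, 21.2 and 13.8 CPM at 0 h and 27.9, 25.0 and 26.0 CPM at 48 h, also without overlap.

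The parental changes moved with GC content. GC content here is that of each gene's longest transcript. In the parental line its Spearman's rho with log2 change was -0.62, -0.66 and -0.65 at 8, 24 and 48 h. This was taken across the 9784 genes that average 10 CPM or more. In the MYC-ER line the values were 0.02, -0.06 and 0.03. These are descriptions across genes, which are not independent. Among the members GC content ran from 40.4% in DNAJB9 to 65.5% in SDF2L1. With the GC trend of each library removed, the parental calls of DNAJB9 at all 3 times were lost, and SDF2L1 at 24 h turned from -0.36 to 0.10. HSP90B1 (0.16) and XBP1 (0.09) no longer passed at 8 h, HSPA5 (0.07) and CALR (-0.06) no longer passed at 24 h, and PDIA4 (-0.11) no longer passed at 48 h. Calls were gained by SDF2L1 at 8 h (0.50, edgeR adjusted p = 1.6e-04), PDIA4 at 24 h (0.18, edgeR adjusted p = 0.0021) and XBP1 at 24 h, lower (-0.24, edgeR adjusted p = 0.0030). The parental calls also depended on the shared estimate of spread, since fits of the 2 groups alone called 1 gene at 8 h, 1 at 24 h and 5 at 48 h. Leaving out parental 24 h replicate 2 left 2 calls at 24 h. At that time HSPA5 and CALR each lost the call without any 1 of 4 of the 6 libraries compared and SDF2L1 without any 1 of 3. At 48 h HSP90B1 lost it without any 1 of 4 libraries and HERPUD1 without any 1 of 3.

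**Figure D3:**
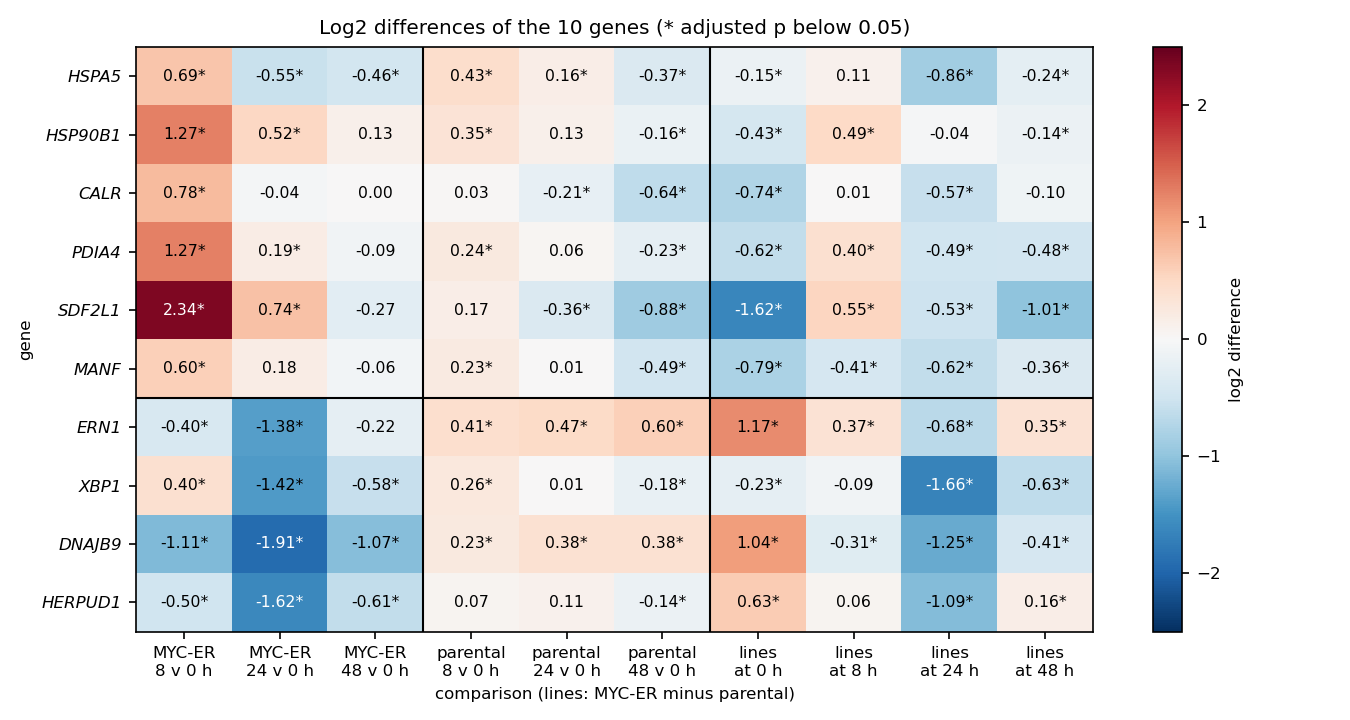
Log2 differences of the 10 genes (rows; folding genes above the horizontal line, sensing, signalling and degradation genes below) in 10 comparisons (columns), red for higher and blue for lower, with an asterisk where the edgeR adjusted p is below 0.05. At 8 h in MYC-ER only ERN1, DNAJB9 and HERPUD1 are blue, and the difference between the lines at 0 h has these 3 genes in red. In MYC-ER, CALR at 24 and 48 h and PDIA4 and MANF at 48 h change sign under other settings. So do parental values near 0 and several line differences of HSP90B1, CALR and HERPUD1. SDF2L1 at parental 24 h (-0.36, with an asterisk) changes sign with the GC trend removed.

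Before 4-OHT the lines already differed in all 10 genes, 3 higher and 7 lower in MYC-ER, where 64.3% of all genes tested passed (31.6% higher, 32.7% lower). ERN1, DNAJB9 and HERPUD1 were higher in MYC-ER by 1.17 ± 0.09, 1.04 ± 0.09 and 0.63 ± 0.05 in log2 (SE). The MYC-ER 0 h libraries of each were the highest group of all 8, without overlap with the next. The lines did not overlap at 0 h in any of the 10 genes, as for 65.0% of all genes tested. The folding genes were lower in MYC-ER, with SDF2L1 at -1.62 ± 0.12, MANF at -0.79 ± 0.08, CALR at -0.74 ± 0.09, PDIA4 at -0.62 ± 0.06 and HSP90B1 at -0.43 ± 0.05 (SE). XBP1 differed by -0.23 ± 0.04 (SE). HSPA5 differed least, by -0.15 ± 0.06 (SE, edgeR adjusted p = 0.030), and lost that call under 3 other settings and without MYC-ER 0 h replicate 1, parental 0 h replicate 1 or parental 0 h replicate 3. The changes from 0 h and the difference between the lines share the MYC-ER 0 h libraries, so they are not independent of each other.

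At 8 h 6 genes differed between the lines, where 48.6% of all genes tested passed (23.1% higher, 25.5% lower). SDF2L1 (0.55 ± 0.12 SE), HSP90B1 (0.49 ± 0.05 SE), PDIA4 (0.40 ± 0.06 SE) and ERN1 (0.37 ± 0.09 SE) were higher in MYC-ER, and MANF (-0.41 ± 0.08 SE) and DNAJB9 (-0.31 ± 0.08 SE) were lower. The lines did not overlap in 7 members, as for 60.8% of all genes tested. HSPA5 did not pass, with means of 949 CPM in MYC-ER and 879 CPM in the parental line whose libraries overlapped. CALR means at 8 h were 660 CPM (SD 35.3) in MYC-ER and 656 CPM (SD 29.7) in the parental line. At 24 h 9 genes were lower in MYC-ER and none higher, where 49.4% of all genes tested passed (23.5% higher, 25.8% lower). These 9 did not overlap between the lines, as for 60.4% of all genes tested. XBP1 differed most, at -1.66 ± 0.04 in log2 (SE, edgeR adjusted p = 1.5e-17), followed by DNAJB9 (-1.25 ± 0.09 SE), HERPUD1 (-1.09 ± 0.05 SE) and HSPA5 (-0.86 ± 0.06 SE). HSP90B1 did not pass (-0.04 ± 0.05 SE, its sign turning under 3 other settings). At 48 h 7 genes were lower and 2 higher in MYC-ER, where 56.7% of all genes tested passed (27.3% higher, 29.4% lower), and 9 did not overlap, as for 66.8% of all genes tested. ERN1 (0.35 ± 0.09 SE) and HERPUD1 (0.16 ± 0.05 SE) were the higher ones, and SDF2L1 (-1.01 ± 0.12 SE) had the largest negative difference. The HSP90B1 call at 48 h, -0.14 ± 0.05 (SE), was 0.00 with library size or upper quartile scaling and was lost without any 1 of 5 of the 6 libraries compared. The HERPUD1 call at 48 h was lost without MYC-ER 48 h replicate 1 (0.13), and HSPA5 passed at 8 h without parental 8 h replicate 1 (0.16).

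Whether a gene changed differently in the lines was tested with the interaction term, the log2 change in MYC-ER less that in the parental line. At 8 h all 10 genes passed, 7 positive and 3 negative, where 55.2% of all genes tested passed (27.3% positive, 27.8% negative). SDF2L1 stood at 2.17 ± 0.17, PDIA4 at 1.02 ± 0.08, HSP90B1 at 0.92 ± 0.08 and CALR at 0.75 ± 0.12 (SE). DNAJB9 was at -1.35 ± 0.12, ERN1 at -0.81 ± 0.13 and HERPUD1 at -0.57 ± 0.07 (SE). HSPA5, at 0.26 ± 0.08 (SE), and XBP1, at 0.14 ± 0.06 (SE, edgeR adjusted p = 0.049), were the smallest. HSPA5 lost the call under library size and upper quartile scaling, and XBP1 under 5 of the 9 other settings and without any 1 of 9 of the 12 libraries compared. Upper quartile scaling left 7 calls at 8 h, 4 positive and 3 negative. At 24 h 7 passed, 2 positive and 5 negative, where 54.5% of all genes tested passed (27.7% positive, 26.8% negative). DNAJB9 (-2.29 ± 0.12 SE), ERN1 (-1.85 ± 0.13 SE), HERPUD1 (-1.72 ± 0.07 SE), XBP1 (-1.43 ± 0.06 SE) and HSPA5 (-0.71 ± 0.08 SE) were negative, and SDF2L1 (1.10 ± 0.17 SE) and HSP90B1 (0.39 ± 0.08 SE) positive. At 48 h 8 passed, 4 in each direction, where 45.0% of all genes tested passed (23.6% positive, 21.4% negative). Without parental 0 h replicate 2, CALR (0.29), MANF (0.27) and PDIA4 (0.19) also passed at 24 h, and PDIA4 (0.20) at 48 h.

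Levels of the members were compared over the 8 group means, which share libraries and depth within a group. The highest Pearson correlation of log2 CPM was between SDF2L1 and PDIA4 (r = 0.975, n = 8 groups), and the lowest between ERN1 and MANF (r = -0.417, n = 8 groups). Outside the pathway lists, the 5 genes most like HSPA5 by this measure were WTIP (r = 0.961), ENSG00000279632 (0.958), KCTD5 (0.955), RAMACL (0.955) and SPINK13 (0.954). Of these, ENSG00000279632 and SPINK13 were close to 0, with group means of at most 0.0654 and 0.112 CPM.

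The other genes of the pathway were taken from 9 lists by role, 124 genes of which 122 were tested. At 8 h in the MYC-ER line 72 were higher and 27 lower, at 24 h 41 and 46, and at 48 h 8 and 55. As shares these are 59.0% higher and 22.1% lower at 8 h (all genes tested, 32.2% and 35.4%), 33.6% and 37.7% at 24 h (30.4% and 31.2%) and 6.56% and 45.1% at 48 h (23.4% and 20.7%). The 24 h shares lie near those of all genes. In the parental line 44 were higher and 23 lower at 8 h, or 36.1% and 18.9%, against 15.0% and 16.0% of all genes tested. At 24 h the parental counts were 44 and 38 (21.2% and 21.7% of all genes), and at 48 h 33 and 62 (20.4% and 20.1%). The interaction at 8 h was positive in 62 and negative in 26 (27.3% and 27.8% of all genes). The median log2 changes of the lists in MYC-ER were 0.29, -0.04 and -0.16, against -0.10, -0.02 and 0.03 over all genes tested.

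Among the sensors, EIF2AK3 (PERK) fell by 0.57, 0.85 and 0.63 on the log2 scale at 8, 24 and 48 h. ATF6 rose by 0.36 at 8 h, differed by -0.08 at 24 h without passing (0.04 with library size scaling) and fell by 0.32 at 48 h. Of the 6 sensors and their proteases 2 were higher and 2 lower at 8 h, shares near those of all genes tested (32.2% higher, 35.4% lower). In the PERK and ATF4 arm 2 of 10 were higher and 5 lower at 8 h, and 2 higher and 8 lower at 24 h, when 30.4% of all genes were higher and 31.2% lower. ATF4 fell by 0.29, 0.81 and 0.34 at the 3 times. DDIT3 (CHOP), the transcription factor of prolonged stress, went from 15.2 ± 0.76 CPM at 0 h to 3.67 ± 0.43 CPM at 8 h (SD, n = 3), a log2 change of -2.05. ATF3 changed by -2.95 and NUPR1 by -2.61 at 8 h. TRIB3, a pseudokinase induced by ATF4 and CHOP, moved the other way, and read 8.16 ± 0.14 CPM at 0 h and 120.2 ± 8.55 CPM at 8 h (SD, n = 3). Its log2 change was 3.88 at 8 h and 1.83 at 48 h. EIF2S1, the translation factor that PERK phosphorylates, was the other gene of this arm that rose, by 1.36 at 8 h.

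Most tested genes of folding and entry into the ER were higher at 8 h, when 32.2% of all genes tested were higher and 35.4% lower. Of 15 other thiol oxidoreductases 12 were higher and 3 lower, with QSOX1 (1.68) and TXNDC5 (1.48) at the top and ERO1B (-2.05) and SELENOM (-0.91) at the bottom. At 24 h 11 were higher (30.4% of all genes), and at 48 h 3 higher and 6 lower (23.4% and 20.7% of all genes). Of 21 genes of translocation and signal peptide removal 18 were higher and 1 lower at 8 h, led by SEC61G (1.45), a subunit of the translocon, and SSR3 (1.15). Of 16 genes of N-glycosylation 10 were higher and 1 lower, led by RPN1 (1.12), a subunit of the oligosaccharyltransferase. Of 12 other chaperones and lectins 7 were higher and 2 lower, with the collagen chaperone SERPINH1 at 1.82 and the BiP cochaperone DNAJC3 at -0.28. Among 18 KDEL receptor and coat genes 11 were higher and 4 lower, and the receptors themselves split, with KDELR3 (1.44) and KDELR2 (1.09) higher and KDELR1 (-0.27) lower. The parental line at 8 h had 7 chaperones and lectins higher and 5 lower and 10 KDEL receptor and coat genes higher and 1 lower, where 15.0% of all genes were higher and 16.0% lower. In the interaction at 8 h, 8 chaperones and lectins were positive and 1 negative (27.3% of all genes positive, 27.8% negative). Of the KDEL receptor and coat genes 8 were positive and 4 negative in the interaction, with a median of 0.04. Between the lines at 8 h, 3 chaperones and lectins were higher in MYC-ER and 3 lower (23.1% and 25.5% of all genes). The parental counts at 8 h were 5 higher and 2 lower for the oxidoreductases, 7 and 2 for translocation and 3 and 3 for N-glycosylation. Before 4-OHT 11 oxidoreductases, 16 translocation genes and 12 of N-glycosylation were lower in MYC-ER than in the parental line (32.7% of all genes). Higher were 2, 1 and 2 (31.6%). Of the chaperones and lectins 8 were lower and 3 higher. At 8 h 9 oxidoreductases were higher in MYC-ER than in the parental line and 1 lower (23.1% and 25.5% of all genes). For translocation these counts were 9 and 5, and for N-glycosylation 3 and 5.

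Most genes of ER-associated degradation were lower at 24 and 48 h in the MYC-ER line. At 8 h 10 of its 21 tested genes were higher and 7 lower (32.2% and 35.4% of all genes), with the ATPase VCP at 1.28 and the lectin OS9 at -0.71. At 24 h 2 were higher and 13 lower (30.4% and 31.2% of all genes), and at 48 h none was higher and 16 were lower, where 20.7% of all genes tested were lower. SELENOS, a partner of VCP at the ER membrane, fell by 1.00 at 24 h and by 0.68 at 48 h. In the CREB3 family, ER-anchored transcription factors, 2 of 3 fell at 8 h, CREB3L4 by 2.14 and CREB3L2 by 0.73. In the parental line 9 of the 21 degradation genes were higher and 8 lower at 24 h (21.2% and 21.7% of all genes). At 48 h the parental counts were 8 higher and 10 lower (20.4% and 20.1%). Their interaction was positive in 4 and negative in 15 at 24 h (27.7% and 26.8% of all genes). At 48 h it was positive in 1 and negative in 11 (23.6% and 21.4%).

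**Figure D4:**
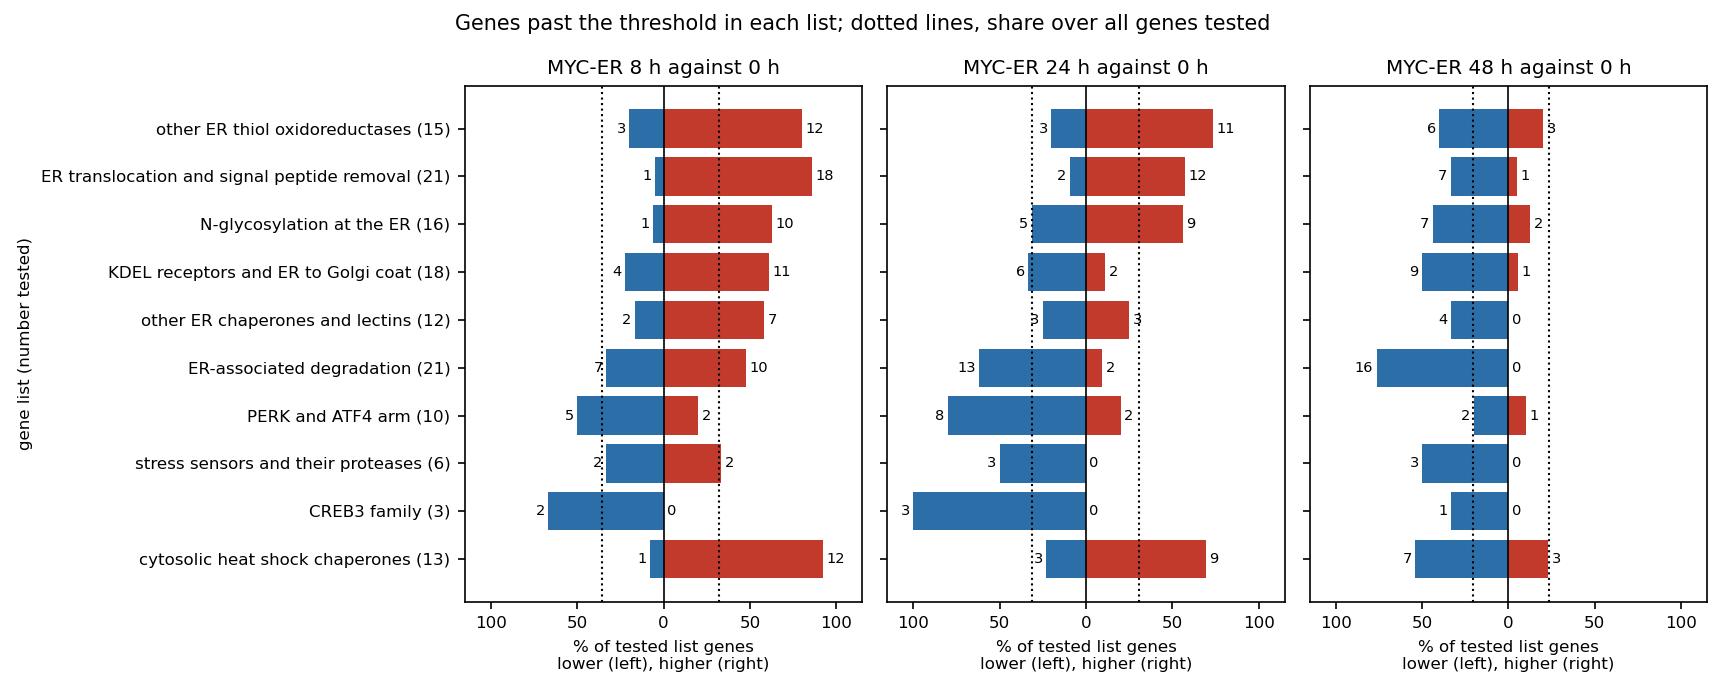
Percentage of the tested genes of each list that passed the test lower (blue, left) or higher (red, right) in the MYC-ER line at 8, 24 and 48 h against 0 h, with counts at the bar ends and dotted lines at the share over all genes tested. Translocation has 18 higher and 1 lower at 8 h, and degradation 16 lower and none higher at 48 h.

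Heat shock chaperones, which answer misfolding outside the ER, were set beside these lists. Their list is named cytosolic, although HSPD1 in it is mitochondrial. Of 13, 12 were higher and 1 lower at 8 h, with a median log2 change of 1.69, where 32.2% of all genes tested were higher and 35.4% lower. In the parental line 7 were higher and 1 lower at 8 h, with a median of 0.21 (15.0% and 16.0% of all genes). Between the lines 11 were lower and 1 higher in MYC-ER at 0 h (32.7% and 31.6% of all genes). At 8 h 12 were higher in MYC-ER and 1 lower (23.1% and 25.5%). In MYC-ER HSPA1A rose by 3.32 in log2, to 2502 ± 73.9 CPM at 8 h (SD, n = 3). It is a near copy of HSPA1B (3.13), and reads of these could be split by the counting, so both values are uncertain. At 24 h 9 were higher and 3 lower, with HSP90AA1 at 2.18 (30.4% and 31.2% of all genes). At 48 h 3 were higher and 7 lower, with HSPH1 at -1.71 (23.4% and 20.7% of all genes). Among near copies of the members, HSPA5P1 had at most 49 counts, XBP1P1 38, CALR3 11 and CALR4P 5 in any library. Copies of HSP90B1 and of DNAJB9 were not matched to a row by symbol, so any share of their reads was not analysed here.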

How the data were processed

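RNA of 24 libraries (8 groups of 3) was sequenced as 150-base paired reads after poly(A) selection with a stranded kit, per the labels' protocols. The authors deposited whole-number counts per gene in 1 table. The submitters' processing notes name Trimmomatic 0.39, STAR, StringTie 2.1.3b and GRCh38. The counting program, annotation release, use of strand and treatment of reads matching several genes are not given in the sources used here, and if StringTie made the counts they are estimates from coverage. Intervals of counting error alone ignore PCR copies, which were not marked.

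In edgeR 4.0.16, under R 4.3.3, filterByExpr kept 22158 genes, TMM set the scaling, and a model with a mean for each of the 8 groups was fitted to the 24 libraries. Two-sided quasi-likelihood F tests were made for 15 contrasts. P-values were adjusted within a contrast over every gene tested (Benjamini-Hochberg), with a threshold of 0.05. Standard errors are the log2 change divided by the square root of F. The biological coefficient of variation, common to all genes, was 0.151. A prior count of 2 went into log2 CPM. Over all genes, replicates differed beyond counting noise (chi-square per degree of freedom 8.45 to 261, the highest 3 in parental 0 h). Exon lengths, GC content of the longest transcript and gene positions came from GENCODE v29, promoters from RefSeq (GRCh38.p14). The script was tested on simulated data.

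The members, the lists and the alternatives were chosen with earlier results of these data known. Named genes are the members, ATF6, EIF2AK3, ATF4, DDIT3 and MYC, and per list and contrast at most the 2 largest rises and the 2 largest falls past the threshold with at least 1 CPM, plus the 5 genes most like HSPA5. Alternatives were DESeq2 1.42.0 size factors and its Wald test, library size alone, upper quartile scaling, no filter, at least 10 counts in every library, a fit of only the 2 or 4 groups in a contrast, a block for the replicate number, each library's lowess trend on GC content (span 0.3) removed, and leaving out each library. Which libraries shared a lane is not given, so lane and group cannot be told apart.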

Additional observations from a re-analysis of the deposited data

Results flagged for a closer look

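For 25 of 30 values (10 genes at 3 times), the change in MYC-ER differed from that in the parental line by a test of the difference itself (edgeR interaction term, 3 libraries in each of the 4 groups). Both changes are counted from 0 h, when the lines already differed. At 8 h all 10 genes passed: SDF2L1 at 2.17, PDIA4 at 1.02, HSP90B1 at 0.92, CALR at 0.75, MANF at 0.38, HSPA5 at 0.26, XBP1 at 0.14, HERPUD1 at -0.57, ERN1 at -0.81 and DNAJB9 at -1.35 in log2. At 24 h the 7 were SDF2L1 at 1.10, HSP90B1 at 0.39, HSPA5 at -0.71, XBP1 at -1.43, HERPUD1 at -1.72, ERN1 at -1.85 and DNAJB9 at -2.29. At 48 h the 8 were CALR at 0.64, SDF2L1 at 0.62, MANF at 0.42, HSP90B1 at 0.29, XBP1 at -0.40, HERPUD1 at -0.47, ERN1 at -0.82 and DNAJB9 at -1.45. The 4 genes with a positive difference at 48 h did not pass against 0 h in MYC-ER (CALR 0.00, SDF2L1 -0.27, MANF -0.06 and HSP90B1 0.13). In the parental line all 4 were lower at 48 h (-0.64, -0.88, -0.49 and -0.16). DNAJB9, ERN1 and HERPUD1 had a negative difference and SDF2L1 and HSP90B1 a positive one at all 3 times. With the GC trend removed, XBP1 (-0.10) and SDF2L1 (0.28) no longer passed at 48 h. Upper quartile scaling left 7 of the 10 calls at 8 h.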

How the results depend on the processing

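Of 2430 values of the members under alternatives, 2246 kept their direction and their side of the threshold, 101 lost the call, 46 gained one and 37 changed sign. Of 1680 values of the other named genes 1648 kept both. The count of members called moved by over 1.5 times under 2 settings. Fits of only the groups compared gave 8 at MYC-ER 48 h (4 over all groups) and, in the parental line, 1 (7), 1 (5) and 5 (10) after 8, 24 and 48 h, and removal of the GC trend gave 3 at parental 24 h (5). Leaving out each library in turn gave, in MYC-ER against 0 h, 10 to 10 members called after 8 h, 8 to 8 after 24 h and 4 to 5 after 48 h, with 10 to 10 for 24 h against 8 h and 7 to 8 for 48 h against 24 h. It gave 5 to 7, 2 to 6 and 8 to 10 in the parental line, 9 to 10, 6 to 7, 9 to 9 and 7 to 9 between the lines at 0, 8, 24 and 48 h, and 9 to 10, 7 to 10 and 8 to 9 for the interaction. Signs that turned were, with library size alone, CALR (0.07) and ATF6 (0.04) at MYC-ER 24 h, PDIA4 (0.07) and MANF (0.10) at MYC-ER 48 h, HERPUD1 (-0.02) and CALR (-0.07) between the lines at 8 h, HSP90B1 after 24 h (0.09) and 48 h (0.00), CALR after 48 h (0.04) and HSPA5 in the interaction at 48 h (0.02). With upper quartile scaling they were CALR at parental 8 h (-0.01), XBP1 (-0.07), PDIA4 (-0.02) and MANF (-0.08) at parental 24 h, and between the lines CALR after 8 h (-0.03), HSP90B1 after 24 h (0.06) and 48 h (0.00) and CALR after 48 h (0.04). With the GC trend removed they were CALR at MYC-ER 24 h (0.01), HSP90B1 (-0.14), SDF2L1 (0.10) and XBP1 (-0.24, edgeR adjusted p = 0.0030) at parental 24 h, CALR at 8 h (-0.02) and HSP90B1 at 24 h (0.03) between the lines, and HSPA5 in the interaction at 48 h (0.04). CALR turned at MYC-ER 48 h without the filter (-0.00) and between the lines at 8 h with at least 10 counts (-0.01). Leaving out 1 library gave both signs for CALR at MYC-ER 48 h (-0.02 to 0.02), at parental 8 h (-0.09 to 0.13) and between the lines at 8 h (-0.03 to 0.05), and at parental 24 h for XBP1 (-0.02 to 0.06) and MANF (-0.09 to 0.15). SDF2L1 at parental 24 h and HSP90B1 between the lines at 48 h had passed the test, and the cause was not tested. The median over all genes at MYC-ER 8 h went from -0.10 to -0.24 in log2 with upper quartile scaling, and library size alone that at MYC-ER 48 h from 0.03 to 0.19. With the replicate number as a block the counts of calls at 8, 24 and 48 h stayed at 10, 8 and 4 in MYC-ER, and in the parental line 6 genes passed at 8 h, since DNAJB9 lost its call (edgeR adjusted p = 0.051). Same-numbered libraries of different groups correlated between -0.365 and 0.551 (median -0.013), and 7 of 24 libraries correlated best with their own number. The labels do not say what the number stands for. These correlations cannot show whether same-numbered libraries shared a batch. Depth limits no member, each having at least 878 counts.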

Other observations

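Before 4-OHT, 4 of the 6 sensors and their proteases were higher in MYC-ER than in the parental line and none lower, and in the PERK and ATF4 arm 6 of 10 were higher and 4 lower, where 31.6% of all genes tested were higher and 32.7% lower. In MYC-ER at 0 h DDIT3 was higher than in the parental line by 1.37 in log2, EIF2AK3 by 0.76, ATF4 by 0.28 and ATF6 by 0.23 (edgeR adjusted p = 3.4e-09, 1.4e-07, 0.0012 and 4.9e-04). ERN1, DNAJB9 and HERPUD1 were higher at 0 h as well, while the 6 folding genes and XBP1 were lower. DDIT3 and EIF2AK3 were then below their 0 h level in MYC-ER at 8 h. Both comparisons use the MYC-ER 0 h libraries.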
